A study of Mus musculus with 6 samples.

Results

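The CRISPR line and the WT line of mouse small intestinal organoids were compared in their untreated state. The comparison rests on 48415 cells of 3 libraries, out of 87954 cells in all 6 libraries of the series. A cell was taken when at least 1000 genes were detected in it and under 20% of its unique molecular identifiers (UMIs, each counting 1 captured transcript) came from mitochondrially encoded genes. The CRISPR organoids without doxycycline (CRISPR -Dox, 1 library) gave 17598 cells. The WT organoids without the inhibitor EIPA (WT -EIPA, 2 libraries) gave 12606 and 18211 cells.

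The WT organoids were grown from the small intestine of adult mice, 10 weeks old according to the methods, and received the solvent DMSO alone. The paper names the duodenum as the source of its organoids. The CRISPR organoids were made from WT organoids with a lentivirus that carries Cas9 and EGFP under a doxycycline switch, together with a guide RNA. They went through puromycin selection and were grown from single clones. Without doxycycline they had no listed treatment, so the lines also differ in solvent, in selection and in clonal origin, and these cannot be told apart here. All 3 cultures were harvested on day 3 after plating, sorted for live cells and run as 10x Genomics 3′ single-cell libraries. The methods describe the 2 WT libraries as separate preparations, although the labels do not say whether these came from different animals, and the CRISPR line has no untreated replicate. The remaining 3 libraries, WT organoids with EIPA (WT +EIPA, n = 2) and CRISPR organoids with doxycycline sorted for GFP (CRISPR +Dox, n = 1), share no library with this comparison and are given beside it.

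Intestinal organoids are epithelium only. LGR5-positive stem cells and Paneth cells sit in crypt-like buds, and daughter cells become either absorptive enterocytes or secretory cells. The secretory cells comprise goblet, Paneth, tuft and hormone-secreting enteroendocrine cells.

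The libraries were alike in UMIs per cell but not in cells kept, which were 57% and 71.5% of the barcodes in WT -EIPA and 79.8% in CRISPR -Dox. Over the mitochondrial limit were 30.1%, 9.67% and 10.6% of barcodes. The cells kept held 161670015 and 239368573 UMIs in WT -EIPA and 232674223 in CRISPR -Dox, with medians of 11947.5, 11858 and 11952 UMIs per cell. Mitochondrial transcripts took a median of 5.27%, 3.50% and 4.31% of a cell's UMIs. Between 55 and 78 cell barcodes were shared by each pair of these libraries. Of the 17 markers of stroma, immune cells and endothelium, 6 passed the filter on low counts, and neither rule below called any of them.

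Counts were summed per library and expressed as counts per 1000000 (CPM). Of 32285 genes in the files, 16596 passed the filter on low counts. Since 1 group has 1 library, a rule of size was used as a description. A gene passed it when CRISPR -Dox lay at least 2-fold above or below both WT libraries on the log2(CPM + 1) scale and the gap to the nearer of them was larger than the difference between them. It was passed by 124 genes above (0.747% of those tested) and by 239 below (1.44%). Merely lying outside the WT pair was common: 42.6% of genes were above both WT libraries and 34.4% below both. edgeR, in which the lone CRISPR library is assumed to vary like the WT pair, called 234 genes higher (1.41%) and 379 lower (2.28%) at an adjusted p under 0.05, and 309 genes passed both rules. The 2 WT libraries differed at least 2-fold from each other in 143 genes (0.862%). Across genes, which are not independent replicates, Pearson's r of log2(CPM + 1) was 0.995 between the WT libraries and 0.985 and 0.983 between CRISPR -Dox and each of them.

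The treated libraries also compare the lines, but EIPA, doxycycline and the GFP sort differ between them. There 230 genes lay above by the same rule (1.39% of genes tested) and 234 below (1.41%). Of the 124 genes above in CRISPR -Dox, 97 passed the rule above in CRISPR +Dox, none passed it below, and all 124 lay above both WT +EIPA libraries. Of the 239 below, 180 passed it below, none above, and 235 lay below both. The shared genes were 78.2% and 75.3% of the untreated calls and 42.2% and 76.9% of the treated calls. Within cell classes, which were built by clustering without the genes past the rule, 65 to 106 of the 124 genes above passed the rule again, and 113 to 170 of the 239 below. The classes are subsets of the same cells, so this recurrence is a description and no independent check. It includes genes outside the cell type that makes their product. Of 19 tested genes of enteroendocrine hormones and granule proteins, 3 to 12 passed the rule below in each class other than the enteroendocrine-like one. The part of free RNA in this was not tested. Over all genes tested, 0.681% to 5.86% passed above and 0.892% to 4.95% below within a class, with the highest shares in the small regenerative-like class, where 3 of the 124 passed below and 2 of the 239 above. Xist, which coats the inactive X chromosome, was at 794 and 861 CPM in WT and 920 CPM in CRISPR -Dox.

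The broadest difference followed a chromosome. Genes of chromosome 5 were shifted upward as a block in the CRISPR line. Among the 623 genes of chromosome 5 with a mean of at least 5 CPM, the median log2 difference between CRISPR -Dox and the WT mean was 0.64, or 1.55-fold, with quartiles of 0.49 and 0.78. Of these genes, 605 (97.1%) lay above both WT libraries and 9 below both, beside 47.8% above both among the 8557 genes of the other chromosomes. The medians of the other chromosomes ran from -0.02 to 0.11. Between the WT libraries no chromosome's median left the range of -0.04 to 0.07. In the treated libraries the median of chromosome 5 was 0.70, or 1.62-fold, and those of the other chromosomes ran from 0.00 to 0.12.

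**Figure D1:**
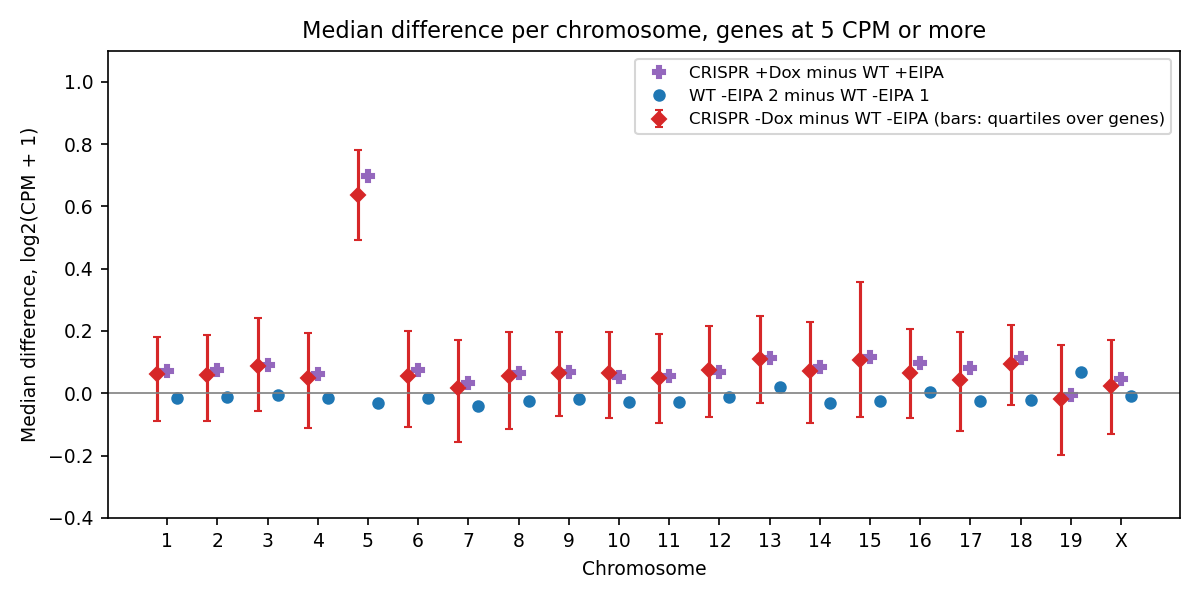
Median difference in log2(CPM + 1) over the genes of each chromosome, for genes with a mean of at least 5 CPM. Red diamonds show CRISPR -Dox minus the mean of the 2 WT -EIPA libraries with quartiles over genes, purple crosses CRISPR +Dox minus WT +EIPA, and blue circles the difference between the WT -EIPA libraries. Chromosome 5 stands at 0.64 and 0.70 in the comparisons of lines, and the other medians lie between -0.04 and 0.12.

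The shift ran along the whole chromosome. Cut into 12 windows of 50 neighbouring genes, chromosome 5 had window medians from 0.59 to 0.70, and from 0.61 to 0.77 in the treated libraries. The WT pair kept within -0.10 and 0.10 in every window of the genome. The shift was also narrow in size: 489 of the 623 genes (78.5%) were between 1.2 and 1.8-fold higher, against 15.9% of genes elsewhere. Most therefore missed the 2-fold rule. Cdk6, a G1 cyclin-dependent kinase, stood at 52.8 and 57.3 CPM in WT and 92.0 CPM in CRISPR -Dox. Polr2b, a core subunit of RNA polymerase II, stood at 37.8 and 38.2 against 59.6 CPM. Prom1, a marker of crypt cells, stood at 72.6 and 80.1 against 134 CPM. None of these 3 genes, chosen after their values were seen, was called by edgeR (adjusted p = 0.0604, 0.0631 and 0.056). A few genes of the chromosome did not move with the rest. Actb, the cytoplasmic actin, was at 2396 and 2320 CPM in WT and 2510 CPM in CRISPR -Dox. Cdx2, a homeobox regulator of intestinal identity, was at 118, 120 and 126 CPM.

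Chromosome 5 also held many of the genes called singly. It carries 6.48% of the genes tested but 38 of the 124 genes above by the size rule (30.6%) and 130 of the 234 called higher by edgeR (55.6%). Ppargc1a, a coactivator of mitochondrial biogenesis, stood at 4.87 and 3.05 CPM in WT and 23.4 CPM in CRISPR -Dox (edgeR adjusted p = 0.0214). Slc4a4, a basolateral sodium bicarbonate cotransporter, stood at 46.3 and 31.2 against 122 CPM (adjusted p = 0.0362). Abcb1a, a drug efflux pump, stood at 124 and 115 against 310 CPM (adjusted p = 0.0168). Slc5a1, the apical sodium glucose cotransporter of enterocytes, stood at 127 and 64.8 against 374 CPM and missed the edgeR threshold (adjusted p = 0.0632). All 4 were named because they passed the 2-fold size rule, so by selection they lie further above WT than the median gene of the chromosome. In the other direction, 8 genes of chromosome 5 were below by the size rule. They include Anxa3 (7.38 and 16.2 against 2.27 CPM), a marker of regenerative epithelium, and Pdx1, a regulator of duodenal identity, which had 201 and 527 counts in WT and 0 in CRISPR -Dox.

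The shift was spread over the cells of the line. A median of 8.73% of a cell's autosomal UMIs came from chromosome 5 in CRISPR -Dox (quartiles 8.36% and 9.06%) and 8.51% in CRISPR +Dox. Cells of WT -EIPA had medians of 6.096% and 6.02%, and cells of WT +EIPA 6.02% and 5.84%. With all genes called by either rule removed, the 10th percentile of CRISPR -Dox cells was 6.65%, above the 90th percentiles of WT -EIPA cells (5.96% and 5.98%). The 90th percentile of CRISPR -Dox cells was 8.45%, with a small tail above it. In the narrow bins from 10.0% to 11.9%, each bin held between 0.102% (from 10.6%) and 0.239% (from 11.5%) of CRISPR -Dox cells. The same bins held 0% to 0.00793% of the cells of a WT -EIPA library. Cells above the last bin are left out. In CRISPR +Dox the 10th percentile was 5.94%, beside 90th percentiles of 5.95% and 5.84% in WT +EIPA, and in Paneth-like cells of CRISPR -Dox it was 4.86%, below the WT 90th percentiles of that class (5.38% and 5.34%). In regenerative-like cells of CRISPR -Dox it was 6.85%, between the WT 90th percentiles of that class (7.04% and 6.51%). The medians of all 9 classes were above those of both WT libraries, with the called genes counted or left out. With all genes counted, the median was 8.78% against 6.12% and 6.01% in stem-like cells. It was 9.03% against 5.97% and 5.99% in enteroendocrine-like cells, and 7.28% against 4.85% and 4.75% in Paneth-like cells. Without the called genes, the stem-like medians were 7.87% against 5.60% and 5.52%. The enteroendocrine-like medians were then 8.07% against 5.62% and 5.65%, and the Paneth-like medians 6.495% against 4.44% and 4.37%.

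A second block lay on chromosome 15. There a running median over 15 genes stayed at 0.3 or more from Trio to Chrac1, chr15:27730651-73097554 in GRCm38. The stretch holds 78 genes with at least 5 CPM, with a median log2 difference of 0.64 (1.56-fold). Of these, 76 lay above both WT libraries. The WT pair differed by 0.02 in the same genes, and the remaining 280 genes of chromosome 15 had a median of 0.04. In the treated libraries the same genes had a median of 0.69 (1.62-fold), with 76 again above both WT libraries, and the block found there ran from Otulin to Trappc9 (27542635 to 73061204).

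The stretch includes Myc, Rad21 and the gasdermin C cluster. Rad21, a cohesin subunit, stood at 93.0 and 86.2 CPM in WT and 177 CPM in CRISPR -Dox (edgeR adjusted p = 0.0341). Ywhaz, a 14-3-3 adaptor protein, stood at 276 and 311 against 463 CPM (adjusted p = 0.114). Myc, the growth regulator and WNT target, stood at 40.3 and 46.1 against 57.4 CPM, a log2 difference of 0.41 that missed both rules. Over all genes tested, the size rule was passed above by 0.747% and below by 1.44%. Of the 148 tested genes in the stretch, 4 passed the size rule above and 0 below. Mal2, a protein of apical vesicle transport, is one of these, at 83.2 and 81.9 against 183 CPM (adjusted p = 0.022).

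Together chromosome 5 and the stretch held 149 of the 234 genes edgeR called higher (63.7%). Outside them, 82 genes passed the size rule above and 231 below, and edgeR called 85 higher and 364 lower. One other run reached the same limit, 22 genes of the histone cluster on chromosome 13 with a median of 0.49, but the WT libraries differed there by 0.24. The treated comparison of the lines gave no run there, while the WT +EIPA libraries themselves differed over 22 genes of that region, Prss16 to Hist1h3c, by a median of 0.36. It gave a run of 15 genes on chromosome 6, Fam13a to Thnsl2, with a median of 0.35 beside 0.13 without treatment. DNA copy number was not measured in these libraries, and its part in the result was not tested.

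**Figure D2:**
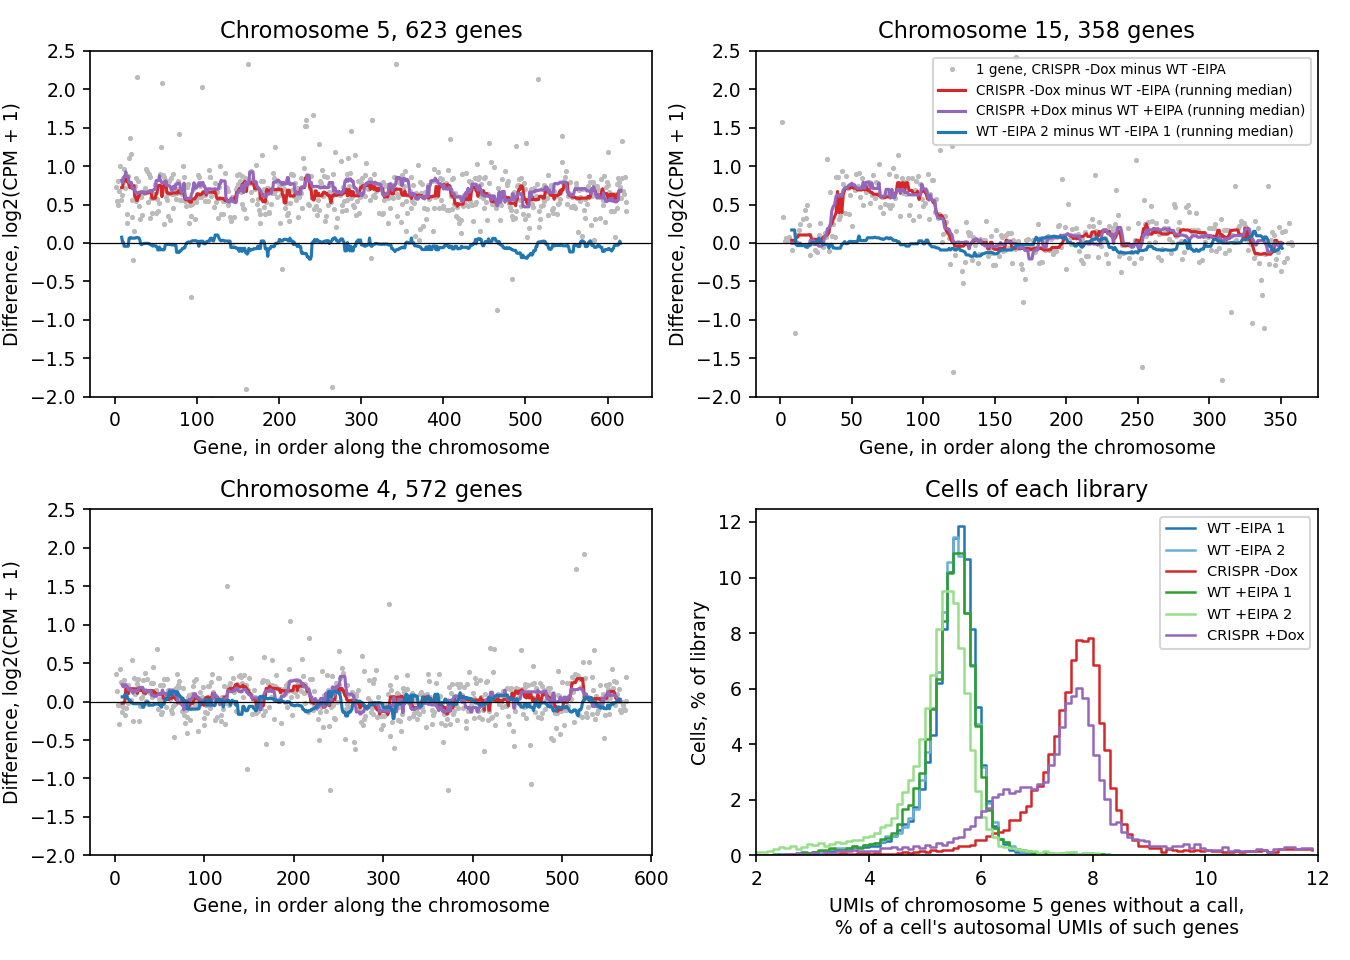
The first 3 panels show log2(CPM + 1) differences for genes with a mean of at least 5 CPM in their order along chromosomes 5, 15 and 4, with grey points for single genes (those beyond the axis are not drawn) and running medians over 15 genes for CRISPR -Dox minus WT -EIPA (red), CRISPR +Dox minus WT +EIPA (purple) and the WT -EIPA pair (blue). The last panel gives the distribution over cells of the share of autosomal UMIs that came from chromosome 5, leaving out genes called by either rule, in each of the 6 libraries. Cells beyond the axis are not drawn. Chromosome 5 is raised throughout, chromosome 15 over 1 stretch and chromosome 4 nowhere, and the bulk of CRISPR cells lies to the right of the WT cells.

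A smaller group of genes was expressed in WT and nearly silent in the CRISPR line. Taking genes at 5 CPM or more in both WT libraries and under 0.2 CPM in CRISPR -Dox, limits that were set after the values were seen, 21 genes were nearly absent from the CRISPR line. They lie on 11 chromosomes, and the closest pair is 6082131 bases apart. All 21 also passed the size rule below in CRISPR +Dox, although 2 were above 0.2 CPM there (Nts at 1.92 and Vim at 0.283 CPM). Both WT +EIPA libraries held 5 CPM or more of 20 of them. Among the nearest tested genes on each side, 22 of 42 held at least 1 CPM in both WT libraries and so could pass the size rule below. Of these 22, Tpd52l1 beside Rnf217 passed it and none passed it above, and their median log2 difference was -0.08. The other 20 neighbours were too low in WT for the rule, which therefore cannot show whether they were lower. Of these 20, 8 had 0 counts in CRISPR -Dox and the rest kept some. Those at 0 include Pkib (0.761 and 1.53 CPM in WT), Fjx1 (0.464 and 0.610 CPM) and Zfp229 (0.489 and 0.430 CPM). The share of all genes tested at 0 counts there is not given here.

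Several of the 21 were detected in WT in all 9 classes, and the part of free RNA in these levels was not tested. Hexa encodes a subunit of the lysosomal beta-hexosaminidase (chromosome 9, 59539540 to 59565109). It had 8771 and 12535 counts in WT, or 54.3 and 52.4 CPM, and 3 counts in CRISPR -Dox, or 0.0129 CPM. The ratio of the nearer WT library to CRISPR -Dox was 4061 with an exact 95% Poisson interval from 1390 to 19695, which covers counting error only. At least 1 Hexa UMI was found in 5823 of 12606 and 8119 of 18211 WT cells (46.2% and 44.6%) and in 3 of 17598 CRISPR cells. Across classes Hexa ranged from 39.3 to 87.9 CPM in WT and did not exceed 0.032 CPM in CRISPR -Dox. Trim44, a deubiquitinase of the tripartite motif family (chromosome 2, 102300119 to 102407828), had 3625 and 6643 counts in WT and 0 in CRISPR -Dox. Set against a floor of 3 counts in that library, it was at least 1739-fold lower. Ptgr2, a prostaglandin reductase, stood at 35.0 and 31.1 against 0.0344 CPM. Sdr39u1, a short-chain dehydrogenase, stood at 19.7 and 16.6 against 0.0387 CPM. edgeR called all 4 lower with an adjusted p of 0.00101 for Hexa and 0.00127 for the other 3.

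The rest of the group were less widely expressed or gut-hormone genes. Stc2, a secreted stanniocalcin, had 45.3 and 21.5 CPM in WT and 0 counts in CRISPR -Dox and in CRISPR +Dox, which was at least 1669-fold lower in the untreated comparison. H2-Q10, a secreted class I histocompatibility protein whose reads may be shared with its close paralogs, stood at 9.02 and 25 against 0.0645 CPM. Its WT replicates differed in the same way with EIPA (9.07 and 25 CPM). Vim, encoding the intermediate filament vimentin, stood at 8.85 and 12.3 against 0.0645 CPM. It was also among the leading genes of the enteroendocrine-like cluster described further down. Smpdl3a, Rnf217, Bicd1, Chic1, Maob, Gng11, Zfp820, Pbxip1 and Nefm ranged from 5.31 to 14.6 CPM in WT and from 0.0043 to 0.133 CPM in CRISPR -Dox. The hormone genes Gip, Gcg, Nts, Pyy and Sst are described with the enteroendocrine cells. Outside these limits but close to them were Tmem223 (82.8 and 98.1 against 0.713 CPM), a mitochondrial membrane protein, and Apobec3 (26.0 and 30.9 against 0.331 CPM), a cytidine deaminase that restricts retroviruses, with adjusted p of 0.00127 and 0.00149.

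The reverse pattern was mostly one of homeobox genes. Under the same limits with the lines exchanged, 2 genes were near absent in WT and expressed in the CRISPR line, Hoxb7 and Hoxd8. Hox genes encode the transcription factors that set position along the body and gut axis, and Meis proteins are their DNA-binding partners. Of 39 Hox genes in the files, 21 were tested, and 9 of these passed the size rule above and 0 below. edgeR called 7 higher and 0 lower. Of all genes tested, 0.747% passed the size rule above and edgeR called 1.41% higher. The median log2 difference over the 21 was 0.96, beside 0.02 over all genes tested, and 9 also passed the rule above in the treated libraries. Hoxd8 and Hoxb7, near absent in WT, passed the filter on low counts only through the CRISPR library, which can raise these figures. The Hox list was added after the values were seen. Reads of neighbouring Hox genes may be hard to assign where their transcripts overlap.

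Hoxd8 (chromosome 2, 74704615 to 74707933) had 0 counts in both WT libraries and 1721 in CRISPR -Dox, or 7.40 CPM. Hoxb7 had 0 and 4 counts in WT and 2551 in CRISPR -Dox, or 11.0 CPM. Hoxb9 stood at 0.0062 and 0.393 CPM in WT and 13.5 CPM in CRISPR -Dox and missed the edgeR threshold (adjusted p = 0.0691), the WT libraries being far apart relative to their level. At least 1 Hoxb9 UMI was found in 1 of 12606 and 85 of 18211 WT cells and in 2702 of 17598 CRISPR cells (15.4%). Hoxb6 and Hoxb8 stood at 3.87 and 4.08 CPM in CRISPR -Dox and at no more than 0.0836 CPM in WT. Hoxd4 stood at 0.241 and 0.284 against 5.54 CPM. The Hoxa genes did not follow: Hoxa3 was at 6.36 and 7.15 CPM in WT and 5.86 CPM in CRISPR -Dox, and Hoxa7 at 1.03 and 11.2 against 12 CPM, so that WT replicate 2 resembled the CRISPR line in this gene. In each class 7 to 10 of the 21 passed the rule above, where the share over all genes ran from 0.681% in stem-like to 5.86% in regenerative-like cells. In the latter 9 passed and the median of the 21 was 0.00.

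Meis2 was among the clearest single differences. It stood at 1.18 and 1.08 CPM in WT -EIPA and 29.9 CPM in CRISPR -Dox, a 25.5-fold gap to the nearer WT library (edgeR log2 fold change 4.69 ± 0.15, SE, adjusted p = 0.00127). CRISPR +Dox held 29.6 CPM and WT +EIPA 1.62 and 1.73 CPM. Genes used here as markers of gut region moved in no single direction. Fabp6, the ileal bile acid binding protein, stood at 2.47 and 2.90 against 10.5 CPM (adjusted p = 0.0189), but at 3.15 CPM in CRISPR +Dox. Of the proximal markers, Pdx1 was absent as given above, at least 96.4-fold lower, while Slc40a1, the iron exporter ferroportin, stood at 1.63 and 1.27 against 7.13 CPM (adjusted p = 0.0214). Gata4, which marks the duodenum and jejunum, was at 28.4 and 28.2 against 34.7 CPM, and neither rule called it. Of 10 proximal markers tested, 1 passed the size rule above and 1 below, and of 12 distal markers 1 passed above and 0 below. By comparison, 0.747% of all genes tested passed above and 1.44% below.

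**Figure D3:**
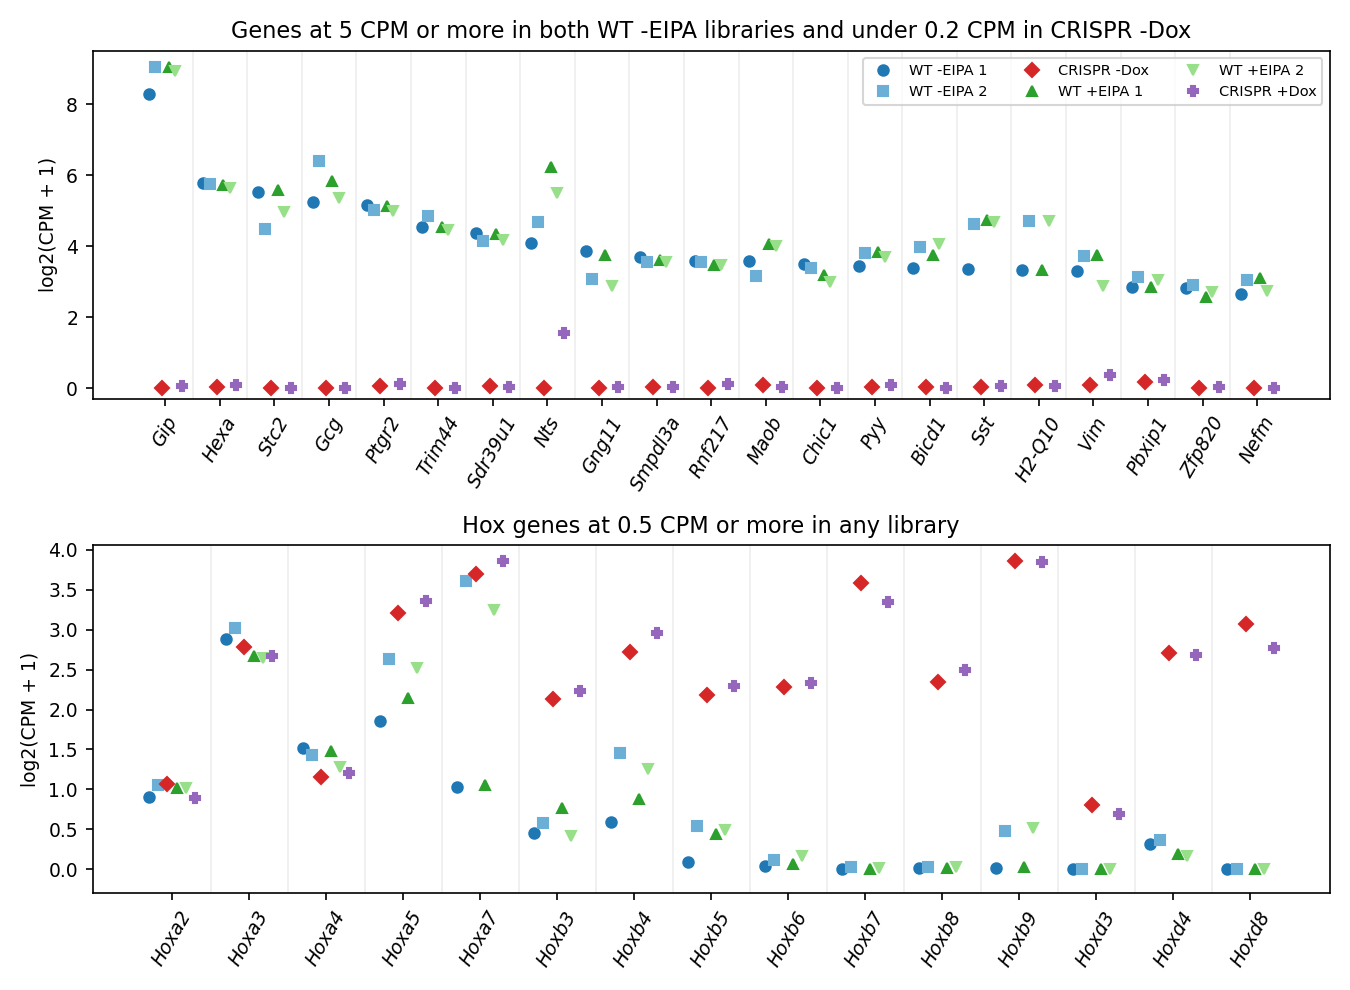
Level in log2(CPM + 1) of single genes in each of the 6 libraries. The upper panel shows the 21 genes nearly absent from CRISPR -Dox, where red diamonds and purple crosses (CRISPR lines) sit near 0 except for Nts in CRISPR +Dox, and the lower panel the Hox genes that reach 0.5 CPM in any library, where the Hoxb and Hoxd genes are higher in both CRISPR libraries than in any WT library while Hoxa2 to Hoxa4 differ little between libraries.

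Promoter sequence is shown for 4 of these genes, to let the letters upstream of the start be read beside the on and off pattern. Each runs 5′ to 3′ on the strand of the gene, from 250 bases before to 50 bases after the transcript start of RefSeq on GRCm38.p6, with every CG dinucleotide, the site at which mammalian DNA is methylated, in capitals. For Trim44 the RefSeq start lies inside the longer gene bounds given above, which come from GENCODE.
Hexa, chr9:59539290-59539589, plus strand: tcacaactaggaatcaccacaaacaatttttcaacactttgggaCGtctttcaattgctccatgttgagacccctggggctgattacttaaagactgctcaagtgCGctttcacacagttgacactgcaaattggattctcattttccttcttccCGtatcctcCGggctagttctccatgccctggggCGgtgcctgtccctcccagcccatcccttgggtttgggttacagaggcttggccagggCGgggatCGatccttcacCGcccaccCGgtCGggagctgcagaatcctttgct
Trim44, chr2:102400851-102401150, minus strand: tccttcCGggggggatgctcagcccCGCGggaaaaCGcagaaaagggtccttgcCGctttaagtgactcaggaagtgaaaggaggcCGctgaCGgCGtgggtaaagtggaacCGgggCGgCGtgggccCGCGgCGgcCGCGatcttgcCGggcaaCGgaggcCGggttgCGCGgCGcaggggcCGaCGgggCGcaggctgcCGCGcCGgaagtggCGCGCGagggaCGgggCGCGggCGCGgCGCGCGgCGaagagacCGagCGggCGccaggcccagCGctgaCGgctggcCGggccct
Gip, chr11:96024295-96024594, plus strand: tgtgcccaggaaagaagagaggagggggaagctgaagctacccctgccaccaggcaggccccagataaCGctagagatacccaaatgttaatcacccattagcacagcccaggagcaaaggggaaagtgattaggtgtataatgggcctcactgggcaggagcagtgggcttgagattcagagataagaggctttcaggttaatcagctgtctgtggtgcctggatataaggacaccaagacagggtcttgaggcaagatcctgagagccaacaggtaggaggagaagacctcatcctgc
Hoxd8, chr2:74704365-74704664, plus strand: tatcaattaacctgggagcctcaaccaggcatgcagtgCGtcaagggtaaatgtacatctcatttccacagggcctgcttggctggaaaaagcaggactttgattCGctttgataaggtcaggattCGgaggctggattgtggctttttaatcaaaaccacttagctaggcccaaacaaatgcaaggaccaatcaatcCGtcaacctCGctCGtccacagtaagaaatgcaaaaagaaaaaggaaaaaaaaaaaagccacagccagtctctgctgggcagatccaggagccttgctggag

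The number of CG in these windows was 10 for Hexa, 46 for Trim44, 1 for Gip and 6 for Hoxd8. CG reads the same on both strands, so 1 count serves for each. Of the 12075 tested genes with such a window, 75.4% held 10 or more, with a median of 19. Among the near-absent genes 17 matched a window. The 5 hormone genes had a median of 7 and 1 of 5 reached 10, while the 12 other genes had a median of 17 and 10 of 12 (83.3%) reached 10. The ranges overlapped, at 1 to 13 and 6 to 46, and the difference was not tested. Methylation was not measured in these libraries, and the counts are a description of the sequence alone.

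Enteroendocrine transcripts were below WT as a group. Enteroendocrine cells are scattered sensory cells that release peptide hormones in answer to nutrients, each subtype making its own set. Of all genes tested, 1.44% passed the size rule below, edgeR called 2.28% lower and 34.4% lay below both WT libraries. Of 24 tested enteroendocrine genes, 18 passed the size rule below and 0 above, edgeR called 18 lower and 0 higher, and 23 lay below both WT libraries. Their median log2 difference was -2.87, beside 0.02 over all genes tested and 0.69 between the WT libraries. In the treated libraries 16 passed the rule below and 1 above. In sums over a library, fewer cells of a type and less RNA per cell cannot be told apart, so values within the class follow further down.

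The hormone genes lay furthest below WT. Gip encodes the incretin of duodenal K cells (chromosome 11, 96024545 to 96030831). It had 49853 and 126567 counts in WT, or 308 and 529 CPM, and 0 in CRISPR -Dox, at least 23916-fold lower. CRISPR +Dox held 0.0338 CPM. Gcg, the precursor of glucagon-like peptides, stood at 37.0 and 83.5 CPM in WT and had 0 counts in both CRISPR libraries. Nts, encoding neurotensin, stood at 16 and 24.6 CPM and had 0 counts in CRISPR -Dox. Pyy, encoding peptide YY, stood at 9.85 and 12.9 against 0.0301 CPM, and Sst, encoding somatostatin, at 9.20 and 23.6 against 0.0129 CPM. These 5 genes left almost no transcript, and edgeR called all of them lower (adjusted p from 0.00346 to 0.0198).

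Other hormones kept a residue. Cck, encoding cholecystokinin, stood at 147 and 308 CPM in WT and 2.23 CPM in CRISPR -Dox (adjusted p = 0.0142). Sct, encoding secretin, stood at 54.3 and 102 against 0.774 CPM (adjusted p = 0.0102). Tac1, the substance P precursor of enterochromaffin cells, stood at 24.2 and 34.7 against 0.989 CPM (adjusted p = 0.00571). Ghrl, encoding ghrelin, lay nearest to WT among the hormones named here, at 74.2 and 168 against 10.4 CPM (adjusted p = 0.0446). The granule proteins common to most enteroendocrine cells were below as well. Chgb, encoding chromogranin B, stood at 409 and 419 CPM against 33.0 CPM, with an edgeR log2 fold change of -3.69 ± 0.17 (SE, adjusted p = 0.00346), and Chga at 44.6 and 71.4 against 3.60 CPM (adjusted p = 0.0128). Over the 19 tested genes of hormones and granule proteins, a list added after the values were seen, 15 passed the size rule below, 16 were called lower by edgeR and the median log2 difference was -3.58. The shares over all genes tested were 1.44% by the size rule and 2.28% by edgeR.

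The transcription factors of the lineage were graded. Neurog3, which commits progenitors to the enteroendocrine fate, stood at 11.7 and 15.0 CPM in WT and 8.60 CPM in CRISPR -Dox and was not called (adjusted p = 0.171). Sox4, an upstream factor, stood at 224 and 264 against 210 CPM. Pax4 lay between the WT libraries, at 1.68 CPM against 1.05 and 2.35 CPM. Later factors were further down: Neurod1 stood at 9.66 and 16.7 against 2.88 CPM, Nkx2-2 at 4.84 and 8.66 against 0.593 CPM, Isl1 at 3.81 and 7.69 against 0.138 CPM and Pax6 at 2.42 and 4.11 against 0.116 CPM. Over 14 such factors, also listed after the values were seen, 6 passed the size rule below and 0 above, edgeR called 5 lower, and the median log2 difference was -1.15. Beside these counts, 1.44% of all genes tested passed the size rule below and edgeR called 2.28% lower.

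**Figure D4:**
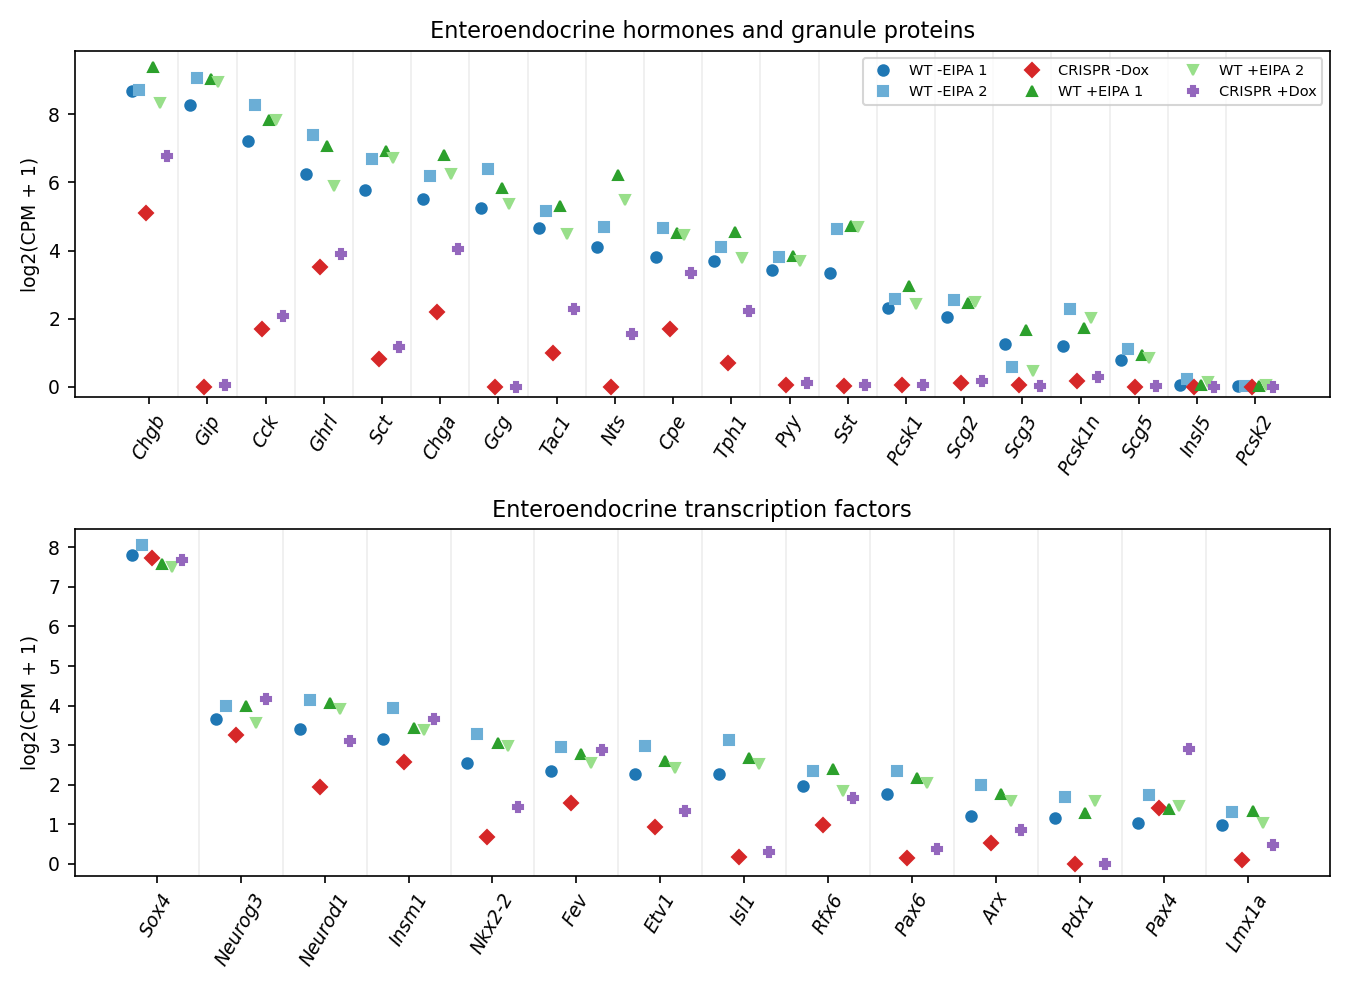
Level in log2(CPM + 1) of enteroendocrine genes in each of the 6 libraries, with hormones and granule proteins in the upper panel and transcription factors in the lower panel, ordered by their level in WT -EIPA replicate 1. Both CRISPR libraries lie below the 4 WT libraries for the hormones and for Isl1, Pax6 and Nkx2-2, while for Sox4 and Pax4 at least 1 of them lies among or above the WT libraries.

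Cells of the class were present. Clustering of the 3 libraries without the 363 genes past the size rule gave 16 clusters, 1 of which was called enteroendocrine-like from its leading genes. These include the hormones compared here, which had no part in the clustering, and Neurog3, which had. It took 3.74% and 6.08% of WT cells and 2.31% of CRISPR -Dox cells (exact binomial 95% interval 2.09% to 2.54%, counting error only). That is 471, 1107 and 406 cells with medians of 6029, 6227 and 5083.5 UMIs. Within these cells, Gip stood at 12046 and 12558 CPM in WT and had 0 counts in CRISPR -Dox, at least 13164-fold lower. Cck stood at 5879 and 7073 against 139 CPM, Chgb at 16009 and 9866 against 2184 CPM, and Ghrl at 2997 and 3958 against 680 CPM. All 19 hormone and granule genes passed the size rule below within the class, beside 733 of the 16596 genes tested. Neurog3 stood at 432 and 318 CPM in WT and 506 CPM in CRISPR -Dox, and Pax4 at 38.5 and 51.1 against 103 CPM, but both were among the genes that built the clusters. Insm1 stood at 290 and 308 against 287 CPM and Neurod1 at 376 and 395 against 185 CPM.

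Shares of cells, taken from the same counts, gave the same order for Chgb and Neurog3. At least 1 Chgb UMI was found in 76.4% and 73.9% of enteroendocrine-like WT cells and in 38.4% of those of CRISPR -Dox. Thinned to 2000 UMIs per cell, the shares were 69.0%, 62.3% and 33.6%. A Chgb UMI was also found in 25% of the proliferating-like cells of each WT library and in 2.14% of those of CRISPR -Dox. The Chgb shares of enteroendocrine-like cells were not corrected for this. For Neurog3 the shares were 54.6% and 49.8% in WT and 77.1% in CRISPR -Dox, or 41.3%, 35.2% and 53.7% after thinning. Neurog3 helped to build the clusters, so its shares are not independent of the class. Among proliferating-like cells, which should hold no hormone, 17.4% and 37.7% of WT cells had a Gip UMI. The part of free RNA or doublets in these shares was not tested. Among the 17598 CRISPR -Dox cells of all classes, 0 held a Gip UMI, which at 3 counts allows a share of cells with a UMI of up to 0.017% (exact 95% upper limit 0.021%). For Neurog3 the share of proliferating-like cells with a UMI was 0.885%, 1.01% and 0.828%.

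Tuft cell genes were lower too, though less far. Tuft cells are chemosensory cells that detect luminal parasites. All 17 tuft genes tested lay below both WT libraries, 9 passed the size rule below and 0 above, edgeR called 10 lower, and the median log2 difference was -1.22. Of all genes tested, 34.4% lay below both, 1.44% passed the size rule below and edgeR called 2.28% lower. In the treated libraries 9 of the 17 tuft genes passed the rule below, beside 1.41% of all genes tested. Dclk1, the kinase that marks the lineage, stood at 7.66 and 6.63 against 0.542 CPM (adjusted p = 0.0061). Rgs13, a regulator of G protein signalling, stood at 11.1 and 14.5 against 4.72 CPM (adjusted p = 0.0413). Trpm5, the cation channel of taste and tuft cells, stood at 2.29 and 2.93 against 0.675 CPM (adjusted p = 0.0511). The tuft-like cluster took 1.43% and 2.17% of WT cells and 0.460% of CRISPR -Dox cells (0.366% to 0.572%), or 81 cells. Within it, 3 of the 17 genes passed the size rule below, beside 4.04% of all genes tested. Dclk1 remained low at 902 and 487 against 147 CPM, whereas Rgs13 lay between the WT libraries at 1266 CPM against 1299 and 1103 CPM.

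Most other classes lay within or near the range of the WT pair. Enterocyte-like cells were 20.8% and 11.5% of WT cells and 22.6% of CRISPR -Dox cells (22% to 23.2%), above both by less than the WT libraries differed. Proliferating-like cells were 39.4% and 35.9% against 37.8%, and stem-like cells 10.4% and 13.9% against 10.9%. Paneth-like cells were 5.50% and 7.26% against 5.67%. Goblet-like cells were slightly fewer, at 4.96% and 5.22% against 4.11%, and the small regenerative-like class took 0.294% and 0.780% against 0.193%. The order was not the same under every setting: at other clustering resolutions or with stricter limits on cells, proliferating-like, Paneth-like and stem-like cells of CRISPR -Dox could lie outside the WT pair. At a resolution of 0.4 no class was called goblet-like, so the Paneth-like and stem-like classes there are not the same sets of cells. No test was run on these shares, since permuting 3 libraries cannot give a p under 0.05.

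**Figure D5:**
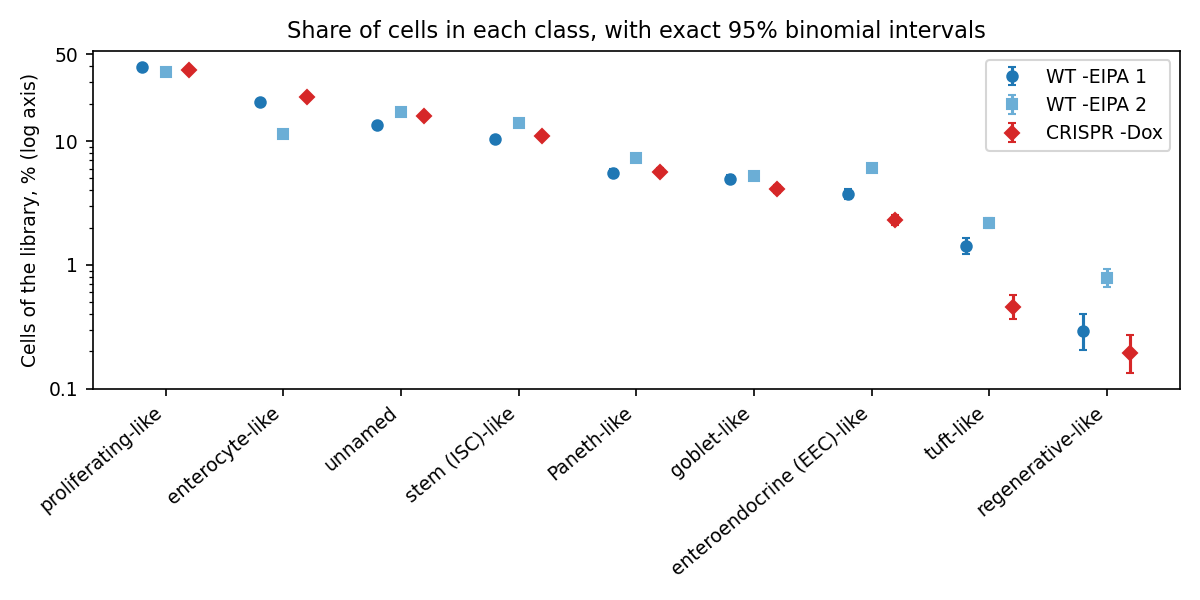
Share of each library's cells in each class, in percent on a log axis, for the 3 untreated libraries, with exact 95% binomial intervals that cover counting error only. CRISPR -Dox lies below both WT -EIPA libraries for goblet-like, enteroendocrine-like, tuft-like and regenerative-like cells, above both for enterocyte-like cells, and between them in the other classes at the resolution used.

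Of 15 crypt-base stem cell genes, 15 WNT targets, 10 Notch genes and 25 proliferation genes tested, neither the size rule nor edgeR called any in either direction. The medians of the 4 lists ran from -0.01 to 0.07. In the order of the lists, 3, 5, 1 and 3 genes had an unadjusted edgeR p under 0.05, and DESeq2, the alternative count test, called 1, 2, 0 and 2. Over all genes tested these shares were 19% and 8.71%. Lgr5, which marks stem cells, stood at 59.1 and 58.3 CPM in WT and 59.6 CPM in CRISPR -Dox. Olfm4, another stem cell marker, stood at 1134 and 1709 against 1754 CPM. Axin2, a feedback target of WNT, stood at 66.1 and 68.5 against 66.0 CPM. Hes1, the Notch effector, stood at 164 and 133 against 143 CPM.

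Enterocyte genes were split. Of 24 tested, 2 passed the size rule above and 2 below, edgeR called none in either direction (11 had an unadjusted p under 0.05, and DESeq2 called 7), and the median was 0.37 while the WT libraries differed by -0.83. Among all genes tested, 0.747% passed the size rule above and 1.44% below. An unadjusted edgeR p under 0.05 was found for 19% of them, and DESeq2 called 8.71%. Slc5a1 was above as given, and Slc2a5, the fructose transporter, stood at 12.4 and 6.46 against 36.8 CPM (adjusted p = 0.0592). Rbp2, the enterocyte retinol carrier, stood at 991 and 674 against 321 CPM (adjusted p = 0.0639) and Anpep, a brush border peptidase, at 16.7 and 8.98 against 2.65 CPM (adjusted p = 0.056). The same 4 genes passed the rule in the same direction in the treated libraries. Within enterocyte-like cells 2 of the 24 passed the rule above and 3 below, beside 0.976% and 0.94% of all genes tested.

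Secretory products other than hormones moved in both directions. Guca2a, encoding guanylin of goblet cells and enterocytes, stood at 131 and 110 against 290 CPM (adjusted p = 0.0299), and was the only one of 12 goblet genes that passed either rule. The size rule was passed above by 0.747% of all genes tested and below by 1.44%. For edgeR these shares were 1.41% higher and 2.28% lower. Nupr1, a stress-induced chromatin protein listed here with Paneth and ATF4 target genes, stood at 33.1 and 34.6 against 142 CPM (log2 fold change 2.03 ± 0.12, SE, adjusted p = 0.00473). It was above both WT libraries in 8 of the 9 classes and between them in the regenerative-like cells. Of the Paneth defensins, which are near-identical copies whose reads may be split, Defa30 stood at 434 and 559 against 161 CPM (adjusted p = 0.0321), while Defa17 lay between WT libraries that stood far apart, at 155 and 1896 against 848 CPM. Over the 18 Paneth genes 1 passed the size rule above and 2 below, edgeR called 1 higher and 3 lower, and the median was -0.97, while WT replicate 2 differed from replicate 1 by a median of 0.60. The treated libraries gave 2 above, 1 below and a median of 0.14, so the direction of the list did not recur. Within Paneth-like cells 1 of the 18 passed above and 6 below, beside 0.964% and 1.3% of all genes tested, with a median of -0.89. Lyz1, encoding Paneth lysozyme, stood at 559 and 1053 against 1093 CPM. Reg1, a C-type lectin, stood at 35.4 and 55.6 against 6.09 CPM (adjusted p = 0.0217) and Reg4 at 187 and 195 against 46.8 CPM (adjusted p = 0.00762). Reg4, which is also on the enteroendocrine list, missed the size rule in the treated libraries, at 327 and 413 against 187 CPM.

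Genes of the regenerative state were low but uneven in WT. Of 14 tested, 5 passed the size rule below and 0 above, edgeR called 3 lower, and the median was -1.34. For all genes tested the shares were 1.44% below by the size rule and 2.28% lower by edgeR. Sprr1a stood at 8.08 and 6.89 against 2.14 CPM (adjusted p = 0.0248) and Msln at 2.18 and 3.34 against 0.181 CPM (adjusted p = 0.0247). Clu, encoding clusterin, stood at 5.55 and 44.3 against 0.486 CPM and passed neither rule because of the distance between the WT libraries. In the treated libraries 1 of the 14 passed the size rule below.

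Among interferon genes Ifitm3 lay furthest above WT. It encodes an antiviral membrane protein of endosomes (chromosome 7, 141009586 to 141010770). It stood at 0.489 and 9.23 CPM in WT -EIPA and 149 CPM in CRISPR -Dox, 16.2-fold above the nearer library, and at 0.466, 8.50 and 159 CPM in the treated libraries. With the WT libraries so far apart, edgeR did not call it (log2 fold change 4.88 ± 1.35, SE, adjusted p = 0.137). It was above both WT libraries in every class, from 44.4 CPM in enterocyte-like to 395 CPM in stem-like cells. Among all genes tested, 0.747% passed the size rule above and 1.44% below, and edgeR called 1.41% higher. Of 40 tested genes of the type I interferon response, 3 passed the size rule above and 0 below, and the median was 0.05. The others were Ifit1 and Ddx60, at no more than 2.85 CPM, which edgeR called higher (adjusted p = 0.039 and 0.0365). Of 11 tested genes of interferon gamma and guanylate binding, both rules called 1 above, the chemokine gene Cxcl10 of chromosome 5, at 0.241 and 0.301 against 2.36 CPM (adjusted p = 0.0238), and none below. Of 23 tested genes of class I antigen presentation and processing, H2-Q10 and Psmb8 passed the size rule below, which 1.44% of all genes tested did, and 0 above. Psmb8, a subunit of the immunoproteasome, stood at 2.42 and 3.88 against 0.116 CPM (adjusted p = 0.0194), and H2-K1 at 251 and 248 against 300 CPM.

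Among ion transport genes the carbonic anhydrase Car2 was absent. It had 526 and 914 counts in WT and 0 in CRISPR -Dox, at least 252-fold lower (adjusted p = 0.00426), and stood at 0.0253 CPM in CRISPR +Dox. With Slc4a4 it was 1 of the 2 genes past the size rule among 23 tested for proton, sodium and bicarbonate transport. That rule was passed above by 0.747% of all genes tested and below by 1.44%. The exchangers Slc9a2, Slc9a3 and Slc9a8 were not called by either rule. Slc9a3, the main apical sodium-proton exchanger of enterocytes, stood at 4.71 and 1.98 against 6.12 CPM. Of 38 tested genes of xenobiotic metabolism, 3 passed the rule above and 2 below, beside 0.747% and 1.44% of all genes tested. Those above, Abcb1a, Ugt2b34 and Ugt2b36, are all on chromosome 5. Akr1b8, an aldo-keto reductase, was below at 17.6 and 22.5 against 2.79 CPM (adjusted p = 0.00906).

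Imprinted genes, transcribed from 1 parental allele, gave a few calls. Cdkn1c, the growth inhibitor p57, stood at 11.1 and 19 against 1.97 CPM (adjusted p = 0.0313). It was also among the leading genes of the enteroendocrine-like cluster, whose transcripts were low as a group. Peg3 had 0 counts in CRISPR -Dox against 0.798 and 1.53 CPM, and Plagl1 stood at 0.223 and 0.221 against 1.38 CPM (adjusted p = 0.0217 and 0.0381). Of 15 tested, 1 passed the size rule below, and edgeR called 1 higher and 2 lower. Shares over all genes tested were 0.747% above and 1.44% below by the size rule, and 1.41% higher and 2.28% lower by edgeR. Of 24 p53 targets, 1 passed the size rule above, Eda2r, at 0.396 and 0.159 against 2.21 CPM (adjusted p = 0.0632), and the median was 0.15. Cdkn1a, the p53-induced cell cycle inhibitor, stood at 138 and 101 against 163 CPM.

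Further genes far above WT have no shared list. Clic6, an intracellular chloride channel protein, stood at 9.92 and 7.93 against 46.9 CPM (adjusted p = 0.00627). Fam234a stood at 11.8 and 10.6 against 53.3 CPM (adjusted p = 0.00467), Tmem267 at 4.75 and 4.84 against 20.8 CPM (adjusted p = 0.0061) and Slc16a12, a monocarboxylate transporter family member, at 6.80 and 6.59 against 27.6 CPM (adjusted p = 0.00571). All 4 passed the rule above in the treated libraries too. Rbp7, a retinol binding protein, did not. It stood at 16.2 and 14.1 against 52.3 CPM without treatment and at 6.56 and 7.06 against 7.78 CPM with it. Ccnb1ip1, a ubiquitin ligase for cyclin B, stood at 6.66 and 8.30 against 25.8 CPM and at 5.46 and 3.28 against 7.02 CPM with treatment. Chromosome 5 supplied Dao (5.46 and 2.26 against 22 CPM) and Muc3 (28.1 and 14.0 against 90.8 CPM), and chromosome 3 Cyp2u1 (13.6 and 8.58 against 42.3 CPM). Far below WT was the defensin-like gene AY761184, at 119 and 145 against 11.0 CPM (adjusted p = 0.00473).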

How the data were processed

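The authors aligned the reads to mm10 (GRCm38) with Cell Ranger 6.1.2, and deposited raw UMI counts per gene and cell barcode, without normalization, removal of doublets or correction for free RNA. Counts of the cells kept (at least 1000 genes, under 20% mitochondrial UMIs) were summed per library and scaled to CPM, and a pseudocount of 1 CPM was added before log2. edgeR 4.0.16 in R 4.3.3 was run as a quasi-likelihood test on the summed counts (filterByExpr, TMM, Benjamini-Hochberg adjustment over all genes tested, residual degrees of freedom 1, from the WT pair), and DESeq2 1.42.0 as an alternative. The p-values measure only the spread between these samples. Both rules were tested on simulated data.

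Groups follow the labels of treatment and genotype. Cells were clustered in Python 3.11.15 with scanpy 1.11.5 (Pearson residuals, 3000 variable genes, 45 principal components, 20 neighbours, Leiden at a resolution of 0.8) after removing the 363 genes past the size rule. Of each cell's 20 neighbours, which include the cell itself, 65.1% came from its own library. The libraries, at 12606, 18211 and 17598 of 48415 cells, were thus not fully mixed. Clusters were named from listed markers, and those with none of them among their leading genes, or led by mitochondrial transcripts or by Gm42418, Lars2 and AY036118, were left unnamed (13.4% and 17.1% of WT cells and 15.9% of CRISPR -Dox cells). Scrublet (in scanpy) called 9.31%, 8.42% and 11.3% of cells doublets, which were kept; the automatic threshold failed in WT replicate 1, where the mean of the others was used.

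The check of the gene targeted by the guide is not reported here. Genes named are the sex-linked genes, the 15 furthest above and below both WT libraries among genes past the size rule with at least 20 CPM in the higher group (mitochondrial genes and unnamed gene models left out), and up to 4 members of each list in each direction, beside genes that the text says were chosen later. The members and lists were chosen with earlier results of these data known. Positions of 32158 features come from GENCODE for the same build, and promoter sequences from RefSeq. Intervals are exact 95% intervals.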

Additional observations from a re-analysis of the deposited data

How the results depend on the processing

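No paired analysis was possible because the groups compared share fewer than 2 replicate numbers. The counts of genes depended on thresholds. The size rule (124 above, 239 below, 363 in all) gave 295, 762 and 1057 with a pseudocount of 0.1 CPM, 50, 69 and 119 with 5 CPM, 601, 459 and 1060 with a fold of 1.5, and 22, 68 and 90 with a fold of 4. Leaving out 1 WT replicate, which also removes the demand on the spread of the pair, gave 225 to 233 above, 295 to 370 below and 528 to 595 in all. The other alternatives for this rule (scaling by TMM or DESeq2 size factors, no filter, equal weight per cell, stricter or no limits on cells, doublets removed, WT class makeup) stayed within 1.5 times each count. edgeR's calls (234 higher, 379 lower, 613 in all) were 356 higher with DESeq2 size factors, 79, 201 and 280 when cells needed 2000 genes and less than 10% mitochondrial UMIs, and 1194, 1368 and 2562 with no filter on low counts. They were 521 higher and 1081 in all over 6 libraries in 4 groups, and 2143, 2037 and 4180 with terms for line and inhibition. DESeq2 gave 664, 781 and 1445, with 966 adjusted p left undefined. Without WT replicate 1 and without WT replicate 2 in the fit over all groups, edgeR gave 233 to 368 higher, 386 to 501 lower and 619 to 869 in all. Leaving out chromosome 5, an alternative chosen after seeing the data, left 104 genes higher. The cause of these changes was not tested. The difference in the share of unnamed cells turned from 0.665 to -2.73 percentage points at a resolution of 1.2, and that of tuft-like cells from -1.34 to -0.784 with the stricter limits on cells. That of proliferating-like cells went from 0.08 to -1.79 with the stricter limits, below both WT libraries, and to 1.91 at a resolution of 1.2, above both. At a resolution of 0.4 that of Paneth-like cells went from -0.72 to -1.72 and that of stem-like cells from -1.22 to -1.83, both then below both WT libraries. That resolution gave no goblet-like class, so its classes are not the same sets of cells. There the Paneth-like class took 10.1% and 12.2% of WT cells and 9.46% of CRISPR -Dox cells. The stem-like class took 3.77%, 6.92% and 3.52%, in the same order. Of 340 named genes, 322 kept their direction under all 14 alternatives, some of which (the folds and no filter) cannot change a direction. Of the 100 named genes past the size rule, 60 stayed past it in every alternative other than the fold of 4. Of all 363 genes past the rule, 114 did so. With 1 CRISPR library and 1 residual degree of freedom, no spread of the CRISPR line itself can be given.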

Other observations

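Some of the spread between the WT libraries recurred with EIPA. Ifitm3 stood at 0.489 CPM in WT -EIPA replicate 1 and 0.466 CPM in WT +EIPA replicate 1, and at 9.23 and 8.50 CPM in the replicates numbered 2. Hoxa7 stood at 1.03 and 1.08 CPM in the replicates numbered 1 and at 11.2 and 8.48 CPM in those numbered 2. H2-Q10, Defa17 and Clu showed the same order, with Defa17 at 155 and 214 CPM against 1896 and 4083 CPM and Clu at 5.55 and 16 CPM against 44.3 and 116 CPM. The labels do not say whether libraries with the same number share a culture, and this was not tested.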
